A study of Mus musculus with 12 samples.

Results

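The 9 genes described here, En1, En2, Otx1, Otx2, Pax2, Pax5, Pax8, Gbx2 and Irx3, encode transcription factors that divide the early neural tube into midbrain, isthmus and hindbrain. They were taken by symbol from a read count table of 23965 gene rows, each had its own row, and all 9 passed the filter on low counts that left 15608 genes for testing. RNA was sequenced from neurospheres, floating cultures grown from ventral midbrain of CD-1 mouse embryos (the labels name no mutation) at E11.5, the embryonic day, and expanded for 3 days. In N2 medium, a serum-free neural medium, the spheres then received 1 of 4 treatments for 5 h. Controls received the solvent DMSO. The other groups received GW3965, an agonist of the liver X receptors (LXR), nuclear receptors for oxysterols, or CT99021, an inhibitor of glycogen synthase kinase 3 beta that mimics Wnt signalling by stabilising beta-catenin, or both compounds. Each group had 3 libraries, numbered 1 to 3 in the labels. The labels do not say whether libraries of a group came from separate cultures or litters, so a p-value reflects how much these libraries vary, and that variation may be technical.

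In the embryo, Otx genes are expressed in the forebrain and midbrain and Gbx2 in the anterior hindbrain, and mutual repression of Otx2 and Gbx2 places the midbrain-hindbrain boundary. Around this boundary lies the isthmic organiser, whose signals Fgf8 and Wnt1 pattern the tissue on both sides. En1, En2, Pax2, Pax5 and Pax8 are expressed around the organiser and maintain each other and its signals, while Irx3, an Iroquois homeodomain factor, is expressed behind the zona limitans and takes part in patterning progenitors along both axes of the neural tube. Wnt signalling through beta-catenin is required to keep En1 on in the midbrain.

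Gbx2 was the single member that changed past the test, in an edgeR fit that compares libraries within replicate numbers, and it was lower wherever CT99021 was present. Where the numbers were ignored its fold changes were similar and did not pass. Its level fell to 0.56 of control with CT99021, where 15.8% of all tested genes passed, and to 0.40 of control with both compounds, where 20.3% passed, and was lower in all 3 replicate pairs each time, while GW3965 alone left a difference that did not pass. The midbrain factors En1, En2, Otx1 and Otx2, the paired-box factors Pax2, Pax5 and Pax8, and Irx3 did not pass in any comparison in that edgeR fit of all 12 libraries, although En1, En2, Otx2 and Pax5 were each called under some alternative. Differences between replicate numbers were larger than these: 6 of the 9 members were lowest in the 4 libraries numbered 3, whatever the treatment, against 13.4% of all tested genes.

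Because Gbx2 carries the treatment result, its RefSeq promoter sequence is shown beside that of En1, the other member on chromosome 1, which did not pass. Both are the 250 bases before the annotated transcription start, 5′ to 3′ on the gene's strand, and capitals mark CAAAG, the reverse complement of CTTTG, the core that Tcf/Lef factors of the Wnt pathway bind.
Gbx2, GRCm38.p6, chr1:89931177-89931426, minus strand: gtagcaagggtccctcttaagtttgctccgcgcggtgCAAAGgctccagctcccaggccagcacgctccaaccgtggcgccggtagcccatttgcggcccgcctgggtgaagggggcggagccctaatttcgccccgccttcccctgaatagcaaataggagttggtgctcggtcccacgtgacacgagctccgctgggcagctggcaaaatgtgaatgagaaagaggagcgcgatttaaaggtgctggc
En1, GRCm38.p6, chr1:120602237-120602486, plus strand: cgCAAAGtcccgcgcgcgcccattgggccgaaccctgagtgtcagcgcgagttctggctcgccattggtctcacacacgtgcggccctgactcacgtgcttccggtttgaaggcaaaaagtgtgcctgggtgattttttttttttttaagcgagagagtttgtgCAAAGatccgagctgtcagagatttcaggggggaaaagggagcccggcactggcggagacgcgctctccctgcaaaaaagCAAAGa
The Gbx2 window held 1 such core and the En1 window 3. On either strand, 5 of the 12 windows listed for the members held CTTTG, against 48.6% of all 32851 windows of that length in the RefSeq table. None of the 12 held a longer Tcf/Lef motif, either CTTTGAT or the variants that end otherwise, CTTTGAA and further on CTTTGTT and then CTTTGTA, of which 14.8% of all windows held at least 1. Of the homeodomain motifs, TAATTA was in 2 of the 12 windows and TAATCC, on the reverse strand, in 1 of the 12. Over all windows the shares were 4.84% and 6.25%. These matches were all in the 4 windows listed for Otx2, of which 2 overlap each other in part. These matches describe letters in a window and no binding was measured. The table matched 7 of the 9 members, and En2 and Otx1 are named without a sequence.

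Levels are given as CPM, the usual scale of a count relative to its library's total (here scaled by edgeR's TMM factors), and between genes as CPM per kilobase of the listed transcript length. On the mm9 build of the count table, En1 is listed at position 122498963 of chromosome 1 and Gbx2 at 91824536 of the same chromosome, En2 at 28492135 of chromosome 5, Otx1 at 21894766 of chromosome 11 and Otx2 at 49277858 of chromosome 14. Pax2 is listed at 44831783 of chromosome 19, Pax5 at 44544377 of chromosome 4, Pax8 at 24276079 of chromosome 2 and Irx3 at 94322409 of chromosome 8. No other gene row was listed within 10000 bases of a member.

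In control libraries the midbrain genes led. Otx2 had 51.7 ± 19.7 CPM per kilobase (SD, n = 3), En2 43.5 ± 15.9, En1 39.2 ± 15.8 and Otx1 22.0 ± 10.6. Neighbours in this order differed by less than their SD, apart from Otx1 and En1, whose means differed by more than either SD while their ranges overlapped. Pax5 followed with 9.38 ± 2.23, Gbx2 with 8.64 ± 5.12 and Irx3 with 6.46 ± 0.64, with the range of Gbx2 overlapping those of both neighbours. Pax8, at 3.15 ± 0.86, and Pax2, at 1.31 ± 0.64, were the lowest and overlapped neither each other nor Irx3. The neurospheres expressed the midbrain genes, as their label says, together with a lower level of Gbx2.

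**Figure D1:**
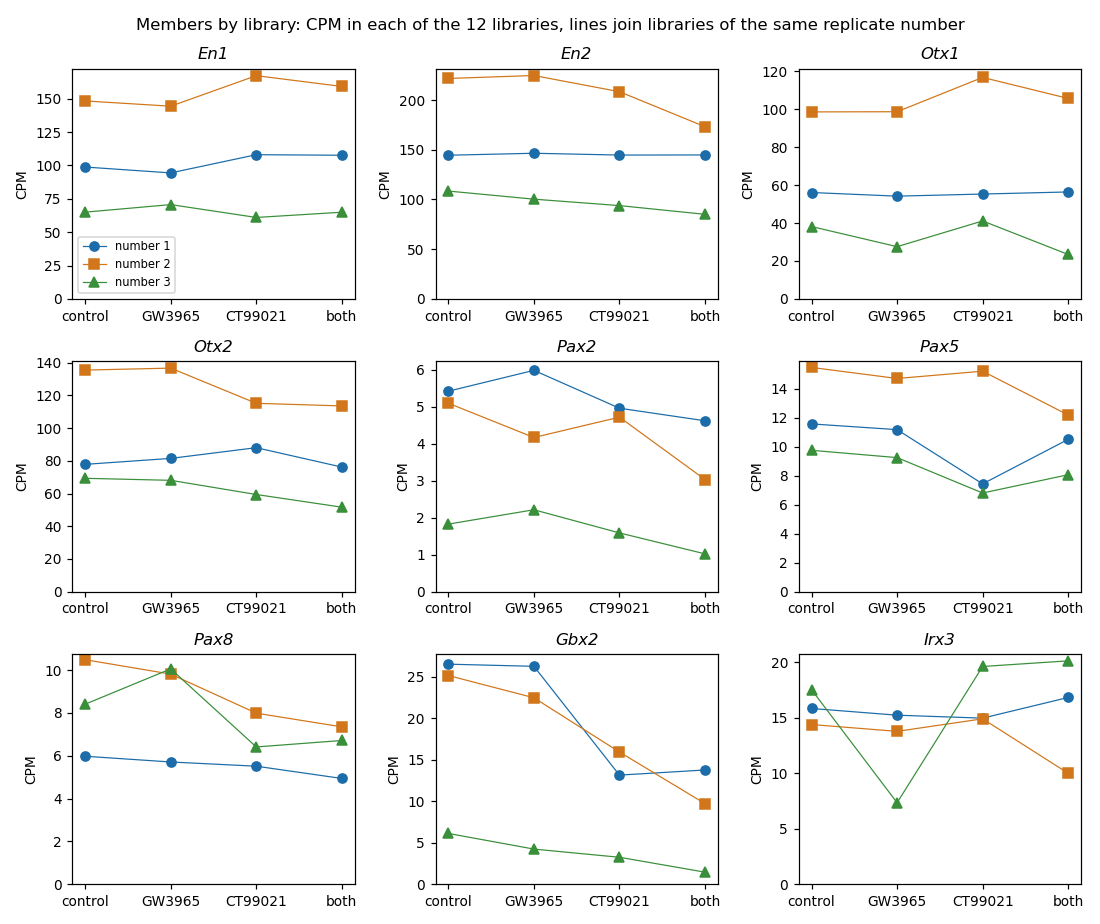
CPM of the 9 genes (linear axis from 0, 1 panel per gene) in the 12 libraries, by treatment on the x axis; a point is 1 library and a line joins libraries of the same replicate number. The lines of number 3 lie lowest for En1, En2, Otx1, Otx2, Pax2 and Gbx2, and the Gbx2 lines of all 3 numbers are lower with CT99021 and with both compounds than in control.

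Replicate numbers set the members apart before any treatment did. In every treatment En1 was highest in the library numbered 2 and lowest in the library numbered 3. En1 had 98.8, 148 and 65.0 CPM in control replicates 1, 2 and 3, and 108, 167 and 61.0 CPM with CT99021. For En2 the control values were 145, 222 and 108 CPM, for Otx1 56.1, 98.5 and 38.1 CPM, and for Otx2 77.8, 136 and 69.3 CPM. All 4 genes were higher in each of the 4 libraries numbered 2 than in the other 8, and lower in each of the libraries numbered 3. Gbx2 and Pax2 were low in number 3 too, but were about as high in number 1 as in number 2.

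The mean of the libraries numbered 1 was 5.30-fold that of the libraries numbered 3 for Gbx2 and 3.16-fold for Pax2, a smaller 1.70-fold for Otx1, 1.56-fold for En1, 1.50-fold for En2 and 1.30-fold for Otx2. Between the libraries numbered 2 and 3 the fold was 4.87 for Gbx2, 3.22 for Otx1, 2.56 for Pax2, 2.37 for En1, 2.14 for En2 and 2.02 for Otx2. Pax8 and Irx3 did not follow this order, with means of 5.53, 8.91 and 7.89 CPM for Pax8 and 15.7, 13.3 and 16.2 CPM for Irx3 in numbers 1, 2 and 3. Over all tested genes, 13.4% lay lower in all libraries numbered 3 than in the other 8, and 3.84% higher in all libraries numbered 2, against 6 and 5 of the 9 members.

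Marker sums of some cell types, but not of all, moved with the same numbers. The summed level of 10 mesenchyme and pericyte markers was 2601 to 3945 CPM in the libraries numbered 3 and 240.0 to 2291 CPM in the other 8. For 7 measured erythroid markers the sums were 7637 to 12358 and 2206 to 6494 CPM, and for 10 neural progenitor markers 2705 to 3156 and 3199 to 4573 CPM. No gene of these 3 lists was at 0 in all libraries. Sums of choroid plexus and pigment epithelium markers were also higher in number 3 (88.7 to 187 against 20.5 to 68.4 CPM). Those of neuron markers were mostly lower in number 3, with a narrow overlap (1401 to 1841 against 1838 to 2789 CPM). Sums of endothelial and microglia markers overlapped between number 3 and the other libraries. The part of these cell types in the differences between numbers was not tested, and in bulk RNA fewer cells of a type and less RNA per cell cannot be told apart. Across all genes, libraries with the same number deviated from their group means together (r = 0.496 to 0.828 over 18 pairs, across genes). Fold changes below therefore come from edgeR's quasi-likelihood test with the replicate number as a block, as log2 values ± SE, with Benjamini-Hochberg adjusted p over all 15608 genes and 0.05 as the threshold. Without the block none of the 9 members passed in any comparison (edgeR, 0 at an unadjusted p under 0.05; DESeq2 and limma-voom also 0). The edgeR fit without the block called 0.0577% of all genes with CT99021, 0.115% with both compounds, 0.0769% for both compounds against GW3965 and 0 in the other contrasts. DESeq2 without the block called more, at 321, 573 and 464 of 15608 genes in the same order.

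The treatments had acted on their pathways in these libraries. Axin2 and Notum, Wnt feedback genes, rose with CT99021 by 1.68 ± 0.14 and 2.68 ± 0.16, and Abca1, the cholesterol exporter, and Srebf1, the lipid synthesis regulator, rose with GW3965 by 1.89 ± 0.17 and 1.40 ± 0.09 (edgeR adjusted p up to 0.00387). Without the block these calls were lost too (adjusted p of 0.153 or more). The libraries held 9646424 to 21314093 counts in gene rows, and CT99021 replicate 1 stood apart through Lars2, which took 7.95% of its counts.

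CT99021 against control addresses how the members answer to inhibition of the kinase. Gbx2 had 26.5, 25.1 and 6.11 CPM in control replicates 1, 2 and 3 (572, 508 and 77 reads) and 13.1, 15.9 and 3.24 CPM with CT99021 (143, 253 and 49 reads). Each CT99021 library was below the control of its number, by log2 ratios of -1.01, -0.66 and -0.92, although the ranges of the groups overlapped because both libraries numbered 3 were low. The fitted log2 fold change was -0.84 ± 0.19 (95% interval -1.26 to -0.43), so that the level fell by 44.3% (edgeR adjusted p = 0.0158, or 0.859 if the block is left out). The call was lost when control replicate 1, control replicate 2 or replicate 1 of CT99021 was omitted (adjusted p up to 0.0739), with log2 fold changes between -0.97 and -0.66 over the 19 alternatives with the block. The log2 ratios of summed mesenchyme markers to control were 0.15, 0.57 and 0.40 in these libraries. Those of summed neural progenitor markers were -0.35, -0.25 and -0.11, a sum in which Vim weighed most (mean 1914 CPM, log2 fold change -0.09). Of the 10 progenitor markers, 4 passed as lower and 0 as higher, where 7.59% of all genes were lower. They were Sox3 at -0.99, Sox1 at -0.67, Nes at -0.44 and Sox2 at -0.32. Among 9 neuron markers, 3 passed as lower and 1 as higher. The part of these cell types in the result was not tested.

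Of the 9 members, 1 was thus lower and 0 higher with CT99021, where 15.8% of all tested genes passed, with 7.59% of all genes lower. For every member the groups overlapped, here and in all 5 comparisons of groups. Over all genes the groups were apart for 14.8% with CT99021, 17.3% with both compounds, 2.77% with GW3965, 2.84% for both compounds against CT99021 and 15.4% for both against GW3965. The median log2 fold change of the members was -0.10, against 0.02 for all tested genes, and 6 of the 9 lay below 0.

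Among the paired-box factors, Pax5, a B cell and isthmus regulator, had 11.6, 15.5 and 9.75 CPM in control replicates 1, 2 and 3 and 7.44, 15.2 and 6.80 CPM with CT99021. It was lower in numbers 1 and 3 and near equal in number 2 (log2 fold change -0.36 ± 0.15, 95% interval -0.70 to -0.02, edgeR adjusted p = 0.144), and it passed with CT99021 replicate 2 left out (adjusted p = 0.0392). Pax8, known best from thyroid and kidney, went from 5.97, 10.5 and 8.41 to 5.51, 7.99 and 6.41 CPM, lower in each pair, with -0.31 ± 0.14 (-0.63 to 0.01, edgeR adjusted p = 0.175). Pax2, an early isthmus marker, had 1.82 to 5.42 CPM in controls and 1.59 to 4.96 CPM with CT99021, with -0.14 ± 0.20 (-0.58 to 0.31).

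The intervals of En1, En2 and Otx2 were the narrowest of the 9. En1, a target that Wnt signals maintain in the midbrain, had a log2 fold change of 0.08 ± 0.08 (95% interval -0.11 to 0.26). In this fit the upper end of the interval is a 1.20-fold rise. Its log2 ratios to control were 0.13, 0.17 and -0.09 in replicates 1, 2 and 3. In a fit of the 7 libraries outside a set of 5 (those numbered 3 and GW3965+CT99021 replicate 2) its log2 fold change was 0.16. For En1 this set is not a group of like libraries. GW3965+CT99021 replicate 2 had 159 CPM, within the 144 to 167 CPM of number 2, against 61.0 to 70.7 CPM in number 3. En2, its paralogue, had -0.10 ± 0.08 (-0.27 to 0.08, adjusted p = 0.432). Otx2, the forebrain and midbrain determinant, had -0.09 ± 0.09 (-0.30 to 0.11, adjusted p = 0.525), and Otx1, its relative, had 0.12 ± 0.14 (-0.20 to 0.44, adjusted p = 0.618). Irx3 had 0.06 ± 0.27 (-0.54 to 0.66), the widest interval of the 9.

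**Figure D2:**
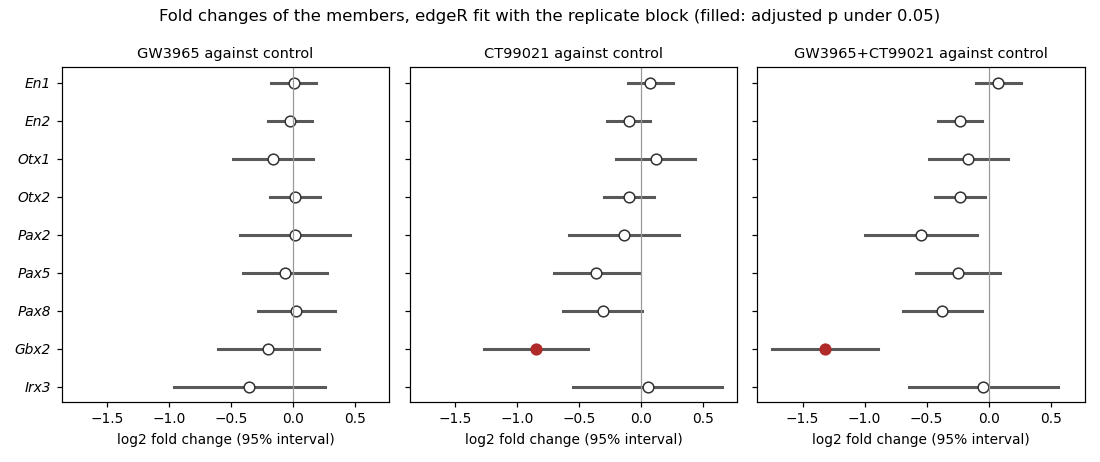
Log2 fold changes of the 9 genes in each treatment against control, fitted by edgeR with replicate number as a block; points are estimates, bars 95% intervals, filled points have an adjusted p under 0.05. Gbx2 is filled with CT99021 (-0.84) and with both compounds (-1.32); every interval of the GW3965 panel spans 0.

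Both compounds together against control gave Gbx2 13.8, 9.69 and 1.44 CPM in replicates 1, 2 and 3, from 259, 128 and 17 reads. Each was below its control, by log2 ratios of -0.95, -1.37 and -2.08, and the ranges again overlapped. The log2 fold change was -1.32 ± 0.19 (95% interval -1.74 to -0.89), so that the level fell by 59.9% (edgeR adjusted p = 0.00213, or 0.668 if the block is left out). It passed under all 19 alternatives with the block (-1.60 to -0.95, adjusted p up to 0.0148). In this comparison 20.3% of all tested genes passed, with 8.95% of all genes lower, and 1 of the 9 members passed. The pair of number 2 crosses the set of 5, which holds GW3965+CT99021 replicate 2 but not control replicate 2. With a term for that set in the fit, 1539 of 15608 genes passed instead of 3162, Gbx2 among them. The summed mesenchyme markers stood 0.661, 1.997 and 0.0995 log2 units above control in replicates 1, 2 and 3. The log2 ratios of summed neural progenitor markers were -0.0922, -0.415 and -0.0634. Of the 10 progenitor markers, 5 passed as lower and 0 as higher, among them Sox3 at -1.12 and Sox1 at -0.81. Among 9 neuron markers, 2 passed as lower and 0 as higher. The part of these cell types in the result was not tested.

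No other member passed in the edgeR fit with the block. The median over the 9, Gbx2 included, was -0.23, against 0.01 for all tested genes, and 8 of 9 lay below 0, as did 49.2% of all genes. En2 had 145, 173 and 85.1 CPM with both compounds against 145, 222 and 108 CPM in controls, equal in number 1 and lower in numbers 2 and 3 (log2 fold change -0.23 ± 0.08, 95% interval -0.41 to -0.05, edgeR adjusted p = 0.0653). DESeq2 with the block, and edgeR with its relative log expression factors, called it. Otx2 had 76.2, 114 and 51.6 CPM against 77.8, 136 and 69.3 CPM, lower in each pair (-0.23 ± 0.09, -0.44 to -0.03, adjusted p = 0.0956).

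Pax2 had 4.62, 3.03 and 1.02 CPM against 5.42, 5.09 and 1.82 CPM, the largest fitted decrease after Gbx2 (-0.54 ± 0.20, 95% interval -0.997 to -0.0909, edgeR adjusted p = 0.0858). Its libraries held 12 to 130 reads, the fewest of the 9. Pax8 had 4.94, 7.35 and 6.71 CPM (-0.37 ± 0.14, -0.69 to -0.06, adjusted p = 0.0912) and Pax5 10.5, 12.2 and 8.07 CPM (-0.25 ± 0.15, -0.59 to 0.09, adjusted p = 0.279). All 3 Pax genes were lower than control in each of the 3 pairs. En1 had 0.08 ± 0.08. Otx1 (-0.16 ± 0.14) had log2 ratios of 0.0076, 0.10 and -0.70 in replicates 1, 2 and 3, lower in replicate 3 alone. Irx3 (-0.04 ± 0.27) was lower in replicate 2 and higher in replicates 1 and 3.

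GW3965 alone changed no member past the test. With the block edgeR called 0.0192% of all genes and 0 of the 9 members (0 at an unadjusted p under 0.05, and 0 by DESeq2 and limma-voom). En1 had 94.4, 144 and 70.7 CPM, En2 146, 225 and 100.3 CPM, and Otx2 81.5, 137 and 68.1 CPM, each close to the control of the same number. Their intervals stayed within 0.22 log2 units of 0, with log2 fold changes of 0.00 ± 0.08, -0.02 ± 0.08 and 0.02 ± 0.09. For Otx1 (-0.16 ± 0.14), Pax2 (0.02 ± 0.20), Pax5 (-0.07 ± 0.15) and Pax8 (0.03 ± 0.14) the edgeR adjusted p was 0.959 or more.

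Gbx2 had 26.2, 22.4 and 4.22 CPM with GW3965, below control by 0.01, 0.16 and 0.53 log2 units in replicates 1, 2 and 3 (-0.20 ± 0.18, edgeR adjusted p = 0.959). Irx3 had 15.2, 13.8 and 7.34 CPM against 15.8, 14.4 and 17.5 CPM in controls. Its low value was that of GW3965 replicate 3, the library with the fewest counts (73 reads of Irx3), and the pairs of numbers 1 and 2 differed by 0.06 log2 units each (-0.35 ± 0.27, edgeR adjusted p = 0.959).

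Whether GW3965 adds to CT99021 is the question of the remaining contrasts, which share libraries with those above. Against GW3965 alone, both compounds lowered Gbx2 by -1.12 ± 0.19 (95% interval -1.55 to -0.69, edgeR adjusted p = 0.00409, or 0.719 if the block is left out), in a comparison where 20.6% of genes passed, with 8.81% of all genes lower. Against CT99021 alone Gbx2 had -0.47 ± 0.20 (-0.91 to -0.04), with log2 ratios of 0.07, -0.71 and -1.16 in replicates 1, 2 and 3. This did not pass (edgeR unadjusted p = 0.0364, adjusted p = 0.734), and 0.0192% of all genes did. The interaction term, the departure from additive log2 effects, was -0.28 ± 0.27 (-0.87 to 0.32, edgeR adjusted p = 0.999). A departure from additive effects was thus not separated from the spread. It does not measure a further decrease with GW3965, which is the contrast against CT99021 alone. No other member passed in these contrasts in the edgeR fit of all 12 libraries with the block. For both compounds against GW3965, Otx2 was also called by DESeq2 with the block, and by edgeR when replicate 1 of CT99021 was omitted. In the interaction, edgeR with the block called 0 of all genes and 0 members (522 genes and 0 members at an unadjusted p under 0.05), and DESeq2 and limma-voom also 0.

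The balance of Otx2 and Gbx2 shows both the numbers and the treatments. Per kilobase, Otx2 was 3.59-, 6.58- and 13.9-fold above Gbx2 in control replicates 1, 2 and 3, and 3.79-, 7.44- and 19.7-fold with GW3965. With CT99021 the ratios were 8.18, 8.84 and 22.4, and with both compounds 6.76, 14.3 and 43.6. Otx2 exceeded Gbx2 in all 12 libraries, and in each number the ratio was higher with CT99021, and with both compounds, than in control. Otx2 fell short of the test in both comparisons, but these ratios hold differences of both genes. Between control replicates 1 and 2, Otx2 differed (77.8 and 136 CPM) while Gbx2 was near equal (26.5 and 25.1 CPM). With both compounds Otx2 stood at log2 ratios of -0.03, -0.25 and -0.42 to control in replicates 1, 2 and 3. The ratios of Otx2 to Gbx2 were not tested on their own.

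**Figure D3:**
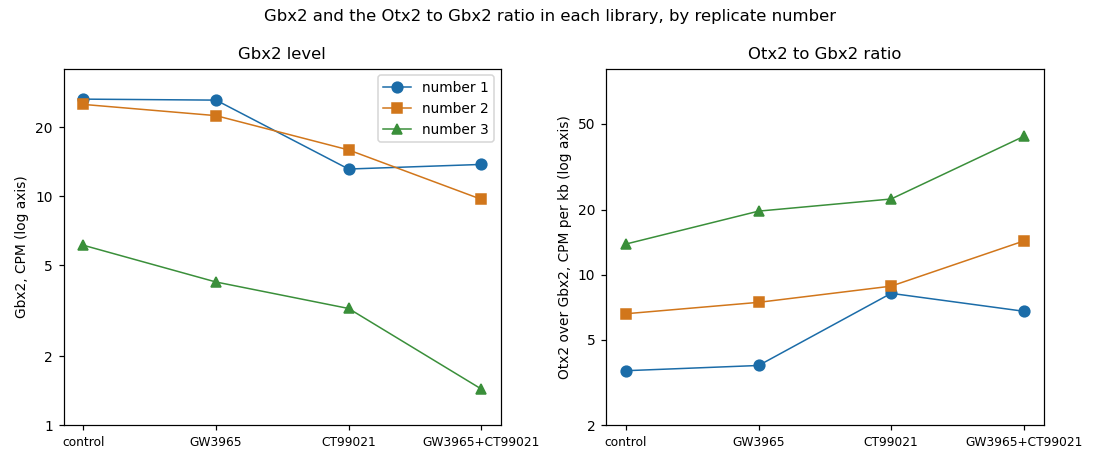
Left, Gbx2 in CPM (log axis); right, the ratio of Otx2 to Gbx2 in CPM per kilobase (log axis); a point is 1 library, and lines join libraries of the same number. Gbx2 is lowest, and the ratio highest at 43.6, in GW3965+CT99021 replicate 3.

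Of the signals of the isthmic organiser and the genes that answer to them, 15 were tested. With CT99021, 6 were lower and 0 higher, and with both compounds 6 lower and 1 higher, with medians of -0.16 and -0.19 against 0.02 and 0.01 over all genes. Of all tested genes, 7.59% were lower with CT99021 and 8.95% with both compounds. Wnt1, the Wnt ligand of the organiser, fell from 18.2, 18.4 and 8.80 CPM in control replicates 1, 2 and 3 to 3.03, 4.34 and 3.90 CPM with CT99021 and 4.78, 2.95 and 4.67 CPM with both compounds, without overlap (log2 fold changes -1.95 ± 0.29 and -1.82 ± 0.29). Dusp6, a phosphatase induced by FGF signals, fell by 0.68 and 0.75, and Lmx1b, a LIM homeodomain factor that maintains Wnt1, by 0.58 and 0.72. For these 3 genes the edgeR adjusted p was at most 0.0083 with the block and at least 0.0816 without it. Lmx1b did not pass with CT99021 when control replicate 1 or 2 was left out.

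Of the FGF ligands in the list, Fgf17 alone passed, and only with both compounds. Fgf17, a close relative of Fgf8, rose with both compounds from 2.96, 6.92 and 1.27 CPM to 5.94, 9.39 and 1.78 CPM (0.67 ± 0.20, edgeR adjusted p = 0.0366, or 0.869 if the block is left out), and had 0.45 ± 0.20 with CT99021 (adjusted p = 0.154). The Fgf17 call held in 10 of 19 alternatives and was lost without any 1 of the controls, among others. Fgf8, the organiser signal itself, was scarce at 0.16 to 1.14 CPM in controls and 0.00 to 4.90 CPM with CT99021, absent from the reads of CT99021 replicate 3 (1.56 ± 0.49, edgeR adjusted p = 0.0547). Fgf18 had -0.49 ± 0.24 with CT99021 (edgeR adjusted p = 0.203) and -0.21 ± 0.24 with both compounds (adjusted p = 0.561), and Fgf15 had 0.26 ± 0.11 and 0.29 ± 0.11 (adjusted p = 0.142 and 0.0865). Fgf8 is given because it defines the organiser and was added after its values were seen.

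**Figure D4:**
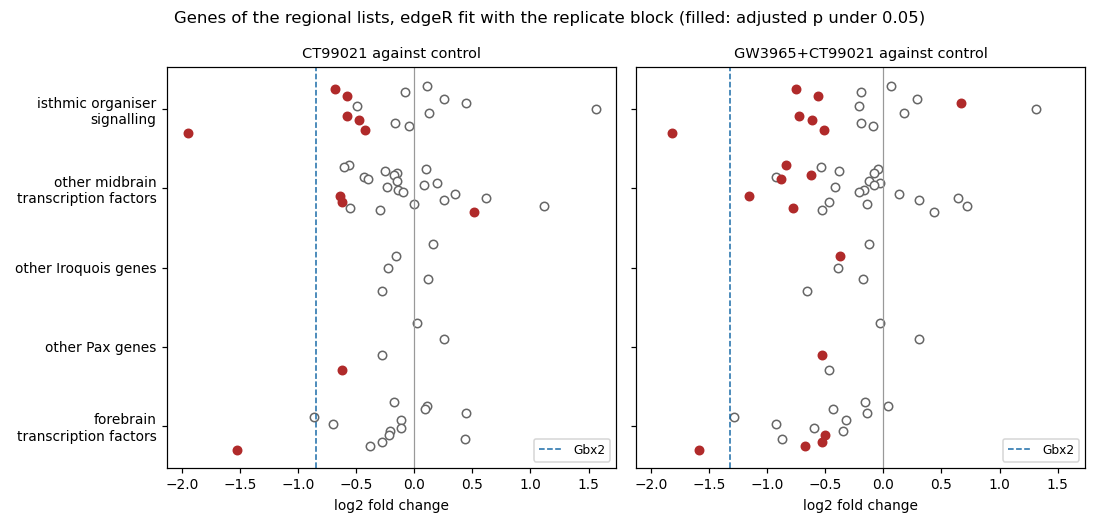
Log2 fold changes (x axis) of single genes of 5 regional lists (rows) with CT99021 and with both compounds against control, edgeR fit with the replicate block; a point is 1 gene, vertical jitter has no meaning, filled points have an adjusted p under 0.05, and the dashed line is Gbx2. With both compounds 1 of the filled points lies above 0, Fgf17 at 0.67, and Wnt1 and Six6 lie below Gbx2.

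Relatives of the members and factors of the neighbouring regions were set beside them. Of 5 other Iroquois genes 0 passed with CT99021 (edgeR, 0 at an unadjusted p under 0.05, and 0 by DESeq2 and limma-voom) and Irx2 alone was lower with both compounds, by -0.38 ± 0.09, from 46.6, 46.9 and 34.1 to 35.9, 32.2 and 29.6 CPM (adjusted p = 0.0142). Of 4 other Pax genes tested, Pax7, a dorsal midbrain factor, was lower with CT99021 (-0.62 ± 0.16, adjusted p = 0.0297), and Pax6, a forebrain factor that opposes Pax2 and En1 at the border of forebrain and midbrain, was lower with both (-0.53 ± 0.14, adjusted p = 0.0263). Of 24 other midbrain transcription factors, 2 were lower and 1 higher with CT99021 (15.8% of all genes passed, 7.59% lower) and 5 lower with both (20.3% passed, 8.95% lower). Nkx2-2, a ventral progenitor factor, went from 12.2, 11.96 and 12.8 CPM to 5.89, 5.30 and 5.35 CPM with both compounds, without overlap (-1.16 ± 0.15, edgeR adjusted p = 0.0014, or 0.0335 if the block is left out). Lhx1, Barhl1 and Sox14, factors of postmitotic neurons, had -0.88, -0.84 and -0.78 with both compounds (edgeR adjusted p up to 0.0199).

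In front of the midbrain, 14 of 16 listed forebrain factors were tested, of which 1 was lower with CT99021 and 4 with both compounds, against 7.59% and 8.95% of all genes, with medians of -0.19 and -0.51 against 0.02 and 0.01 over all genes. Six6, an eye and hypothalamus factor, went from 5.05, 12.5 and 0.95 CPM to 1.47, 4.84 and 0.26 CPM with CT99021 (-1.52 ± 0.25, edgeR adjusted p = 0.00488) and had -1.59 ± 0.26 with both. Six3, Lhx2 and Pax6 had -0.67, -0.50 and -0.53 with both compounds (edgeR adjusted p up to 0.043). Each of these calls on Pax6, Pax7, Irx2, Six3, Lhx2, Lhx1, Barhl1 and Sox14 was lost in at least 1 alternative with the block, and without the block none of them nor Six6 passed.

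Behind the isthmus, 11 of 16 hindbrain and spinal factors were tested and 0 passed in either comparison (edgeR with the block, 0 at an unadjusted p under 0.05, and 0 by DESeq2 and limma-voom). Of the 16, 11 had a mean under 1 CPM, most of them Hox genes. Egr2, a hindbrain segment factor that other cell types also express, had 1.41 to 9.27 CPM over the 12 libraries. Hoxa2 and Hoxb2, chosen after their values were seen, had 1.27 to 3.76 CPM in the 4 libraries numbered 1 and at most 0.08 CPM in the other 8. Gbx2 had 9.69 to 25.1 CPM in the libraries numbered 2, where these Hox genes were near 0. The region that its reads came from was not tested.

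Over the 12 libraries, after removing the mean of each replicate number, the genes most like Gbx2 among 14650 were Vash1, an angiogenesis inhibitor (Pearson r = 0.99, Spearman rho = 0.98), and the histone gene Hist3h2ba (r = 0.99, rho = 0.96). Vash1 fell with CT99021 by 0.38 (edgeR adjusted p = 0.0153) and with both compounds by 0.52 (adjusted p = 0.00307), a smaller change than that of Gbx2. The genes most like the others were Arhgef7 for En1 (r = 0.97), Efnb3 for En2 (0.96), Stab1 for Otx1 (0.98), Klhdc8b for Otx2 (0.95), 4632428N05Rik for Pax2 (0.96), Bsn for Pax5 (0.96), Klhdc3 for Pax8 (0.97) and Cldn6 for Irx3 (0.98). No member was among the 2 genes most like another member. These are the highest values of many, from libraries that share their totals and treatments, and they are given as a description. Before the number means were removed, r was -0.62 for Efnb3, -0.46 for Klhdc8b, -0.31 for Stab1 and 0.03 for Klhdc3. For Arhgef7, 4632428N05Rik, Bsn and Cldn6 it was 0.20 to 0.89. Cldn6 had 0 CPM in GW3965 replicate 3 and in GW3965+CT99021 replicate 2.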

How the data were processed

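The authors deposited raw counts of reads per feature in 1 table for 12 libraries, made from 0.5 µg of RNA each with Illumina TruSeq kits per the labels' protocols. The table's column of transcript length, also deposited, was used for levels per kilobase. The submitters' processing notes name Bowtie and mm9 with no version; the counting program, annotation and strand setting are not given in the sources at hand. Repeat rows (1217, 0.196% to 0.643% of counts) stayed out. Counts were fitted with edgeR 4.0.16 (R 4.3.3) and its quasi-likelihood test, all 12 libraries, a mean per group, TMM factors and filterByExpr. This fit without a block was the fixed one; since all 18 same-number pairs of libraries correlated (median r = 0.752, against -0.677 to 0.241 for different numbers), a pairing shown by the data and not by the labels, the fit with the replicate block is given beside it. The block lowered the common biological coefficient of variation from 33.4% to 12.7%. Alternatives used DESeq2 1.42.0, limma 3.58.1 (voom), other factors, no filter and left-out libraries. Each fit was also tested on counts simulated from its own model and spread, for CT99021 against control with 200 changed genes. The fit with the block (15506 genes) recovered 82% of those set to change by 1 log2 unit and 97% of those by 2, with 7 of 186 calls false. Without the block (15468 genes) these were 27% and 74%, with 1 of 102 false. Because the simulated spread differed between the 2 runs, they do not show which fit suits these libraries better. Likeness used log2 CPM (prior count 2) of genes with a mean of 1 CPM or more, and the 2 most alike were kept. From each regional list up to 4 genes with the largest change past the test were named (otherwise the 2 most abundant, of which 1 is not reported here). The members and lists were chosen with earlier results of these data known. Replicate libraries of a group differed by more than sampling noise.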

Additional observations from a re-analysis of the deposited data

How the results depend on the processing

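Among the 9 members, counts past the test without the block were 0 in every comparison and under the alternatives without it. The replicate block raised this to 1 (Gbx2) for CT99021 against control, both compounds against control and both compounds against GW3965. With the block, leaving out 1 library moved the count between 0 and 2 for CT99021. Pax5 was added without CT99021 replicate 2, where 1114 of 15853 genes passed. The count moved between 1 and 2 for both compounds against control and against GW3965. It was 2 in the 7 libraries outside the set of 5 for CT99021 (En1 added), 2 for both compounds against control with relative log expression factors and with DESeq2 (En2 added), and 2 for both compounds against GW3965 with DESeq2 (Otx2 added). Gbx2 with both compounds moved from -1.32 to -0.95 in those 7 libraries, which hold a single library of that group.

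Apart from single left-out libraries, changes of direction concerned values that had not passed. For GW3965 against control, En1 (0.00 with the block) was -0.0127 without the replicate block, -0.00946 there with relative log expression factors, -0.0183 with no filter, -0.00931 by DESeq2 and -0.0111 with the compared groups alone; with the block it was -0.00201 with no filter and -0.0103 by limma-voom. When the libraries numbered 3 were left out, and when the fit used just the 7 libraries that are not in the set of 5, the GW3965 values were -0.0494 and -0.0505 for En1, 0.0216 and 0.0207 for En2, -0.0599 and -0.0476 for Pax2, and -0.081 and -0.0823 for Pax8 (-0.0305 by limma-voom without the block). Under the same 2 settings Irx3 was -0.0212 and -0.0282 with CT99021, and Otx1 was 0.0367 and 0.0392 with both compounds. Irx3 with both compounds was 0.0861 in the 7 libraries and 0.194 when the set of 5 had its own term. For these the cause was not tested.

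Leaving out 1 library, in the fits with and without the block, gave ranges across 0 for the following; of these Pax7 with CT99021 and Lhx2 with both compounds had passed with the block. With GW3965 they were -0.336 to 0.332 for En1, -0.36 to 0.313 for En2, -0.652 to 0.352 for Otx1, -0.336 to 0.376 for Otx2, -0.366 to 0.298 for Pax2, -0.266 to 0.136 for Pax5, -0.153 to 0.260 for Pax8, -0.541 to 0.336 for Gbx2 and -0.603 to 0.00319 for Irx3. With CT99021 they were -0.302 to 0.453 for En1, -0.409 to 0.236 for En2, -0.418 to 0.592 for Otx1, -0.356 to 0.251 for Otx2, -0.488 to 0.225 for Pax2, -0.0901 to 0.182 for Irx3 and -1.27 to 0.0809 for Pax7. With both compounds they were -0.27 to 0.431 for En1, -0.461 to 0.0857 for En2, -0.685 to 0.39 for Otx1, -0.56 to 0.128 for Otx2, -0.275 to 0.214 for Irx3 and -0.852 to 0.132 for Lhx2. Gbx2 ranged from -0.945 to 0.126 for both compounds against CT99021 and from -0.822 to 0.248 for the interaction.

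Gbx2 kept its direction in every alternative run for CT99021 against control, both compounds against control and both compounds against GW3965. Pax2, with 12 to 130 reads a library, and Gbx2 in the libraries numbered 3, with 17 to 77, were the values most limited by depth, and with 3 libraries a group small changes can be missed.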
